A study of Mus musculus with 7 samples.

Results

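The noncoding landmarks of the Epha4 domain are Gm17751, Mir6343 and Mir6352, the 3 noncoding genes that the deposited gene tables list next to Epha4, out of 103 genes in each table. A table holds 1 scaled value for each gene, the contact of the gene's start site with an enhancer region, and the 3 rows were chosen by name with these values known. Capture Hi-C counts how often pairs of loci lie close together in the nucleus, here after DpnII digestion and probe enrichment of a 10 Mb region of mouse chromosome 1. The tables cover wild-type limb buds (WT) and limb buds of 4 CRISPR/Cas9 inversions (Inv1, Inv2, Inv3 and Inv4), all from embryos at E11.5 and titled Distal. Each was 1 library pooled from the limb buds of 10 embryos, so every difference below is between libraries and has no replicate check. The labels give the mutants' genotype only as mutant, without saying whether a WT chromosome was present beside the inverted one. They give G4 ESC as the cell type of every library, limb buds included. The Inv1DelCTCF and Inv1 ESC libraries have maps but no gene table here, and were not analysed.

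Epha4 encodes an ephrin receptor tyrosine kinase. In the developing limb it is driven by distant enhancers that share its topological domain, a stretch of chromatin whose loci meet each other more often than loci outside. A noncoding start site in such a domain gives a second look at where an enhancer reaches, because its contact is measured in the same way as that of a coding promoter. Long noncoding RNAs (lncRNAs) are transcripts without a known protein product. MicroRNAs (miRNAs) are short RNAs that repress messenger RNAs, largely through the seed near their 5′ end. Contact was measured here, not expression, so none of the values shows that a landmark was transcribed.

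The landmarks are not evenly spread around Epha4. By the coordinates below, Gm17751 and Mir6343 lie close together, and both lie much farther from Mir6352. The rows of all 103 genes followed the order of the RefSeq annotation of GRCm38.p6, with 0 neighbouring rows out of order. In that annotation Gm17751 is an lncRNA gene with 2 transcripts, and Mir6343 is the next gene after it. Both lie between Slc4a3, which encodes an anion exchanger, and Epha4, with 0 protein-coding genes in that interval. Mir6352 lies inside the Epha4 gene, on the same strand, and was nevertheless listed with its own value in all 5 tables. Between Epha4 and Pax3, a transcription factor gene of muscle and neural crest progenitors, the annotation likewise holds 0 protein-coding genes. Besides Epha4, the 3 landmarks are the only listed rows between Slc4a3 and Pax3. The files use mm9 and the tables give no positions, so coordinates below identify RefSeq sequences in GRCm38.p6 and were not applied to the contact data.

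The sequences show what kind of gene each landmark is. The mature miRNAs are given 5′ to 3′ from RefSeq, with the seed (bases 2 to 8) in capitals.

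mmu-miR-6343: uGUAAAGUaggagcugacugac

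mmu-miR-6352: uUUGGGAAaaggaccccagcuc

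Both are 22 bases long and do not share a seed. The seed of miR-6343, GUAAAGU, occurred in 0 other mature miRNAs of the 1738 in the RefSeq table, and that of miR-6352, UUGGGAA, in 2 others. The mature miR-6343 occupies bases 61 to 82 of a hairpin of 84 bases (chr1:76509560-76509643, plus strand), on its 3′ arm. The mature miR-6352 occupies bases 17 to 38 of a hairpin of 116 bases (chr1:77496653-77496768, minus strand), on its 5′ arm.

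The promoter of Gm17751 in the RefSeq sequence table spans 250 bases before to 50 bases after the start (GRCm38.p6, chr1:76488883-76489182, plus strand). The capitals mark TATAA, the core of a TATA box.

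Gm17751 promoter: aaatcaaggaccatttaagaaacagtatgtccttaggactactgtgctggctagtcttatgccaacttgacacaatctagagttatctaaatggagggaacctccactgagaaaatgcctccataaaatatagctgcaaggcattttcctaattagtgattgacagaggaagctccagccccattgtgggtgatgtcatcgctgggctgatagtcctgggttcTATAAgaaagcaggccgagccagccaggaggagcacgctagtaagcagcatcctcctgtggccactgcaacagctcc

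The first base of TATAA lies 27 bases before the start, and these letters were found 1 time when both strands were searched. Of 32851 RefSeq promoter windows of the same length, 24.9% hold TATAA on either strand. CCAAT was found 0 times on either strand, against 37.4% of windows with it. GATC, the site that DpnII cuts, was found 0 times here, against 48% of promoter windows with it. Neither miRNA hairpin holds it, but at 84 and 116 bases they are shorter than these windows, so the 48% is no background for them. The window has 3 CG dinucleotides, and 31.4% of windows have as few or fewer. These matches describe letters in 1 window and say nothing about binding.

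In WT limb buds the enhancer region met the landmarks more than any listed gene but Epha4. Epha4 was highest of 103 genes at 7.68 scaled units, followed by Mir6352 at 5.55, Mir6343 at 4.65 and Gm17751 at 4.15, in places 2, 3 and 4. The landmarks stood at 72.3%, 60.5% and 54.0% of Epha4. The median of all 103 genes was 0.447. Asic4, an ion channel family gene, came next at 4.08, below Gm17751 by less than the far-gene SD in WT (0.177, over 27 genes at both table ends), so place 4 is not resolved from place 5. Slc4a3, the row before Gm17751, was at 3.91, and Pax3, the row after Mir6352, at 1.98.

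Within WT, contact was not confined to the Epha4 promoter but extended over the block. Mir6343 exceeded Gm17751 by 0.501 and Mir6352 exceeded Mir6343 by 0.907. As a guide to local differences, neighbouring rows with different values between Dnpep and Slc4a3 (9 values) differed by a median of 1.011 and by up to 2.71. This stretch was picked after the values had been seen. Both differences were below the median step and above the far-gene SD in WT (0.177). The steps can hold real differences between genes, and that SD comes from genes with low values. Neither measure decides the order of neighbouring landmarks, which is left unresolved. Mir6352 exceeded Gm17751 by 1.41, which is above the median step and below the largest. The same held for the 2.13 by which Epha4 exceeded Mir6352.

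The other noncoding genes of the tables did not reach this level in WT. RefSeq biotypes gave 16 noncoding genes, of which 13 are not landmarks. Those 13 had a median of 0.360 in WT, and the highest was the lncRNA gene Gm15179 at 1.18. The miRNA genes among them were Mir375 at 0.784, Mir1928 at 0.556, Mir6351 at 0.441 and Mir26b at 0.273. Mir375, a miRNA of pancreatic islets and neuroendocrine cells, had its highest value in Inv2, at 6.98.

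**Figure D1:**
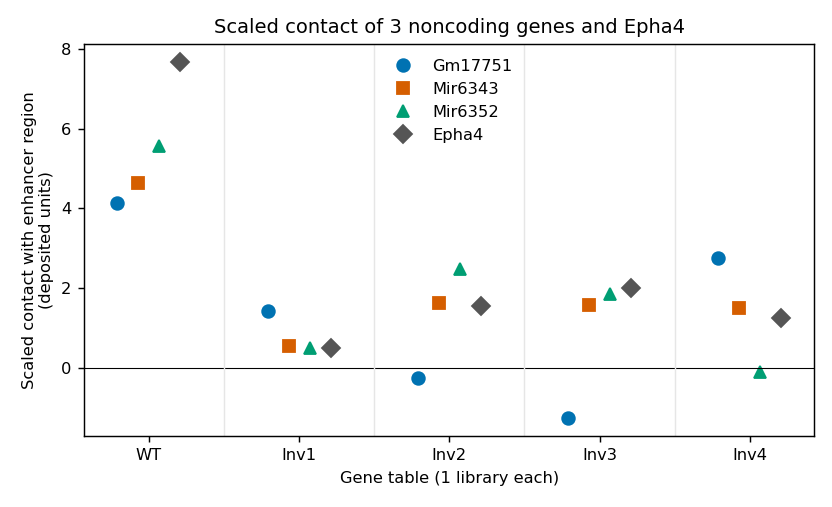
Scaled contact with the enhancer region in deposited units (y axis) for Gm17751, Mir6343, Mir6352 and Epha4 in each of the 5 gene tables (x axis), 1 point per gene and library. In WT all 4 points lie at 4.15 or above, and in the inversions all lie, as deposited, at 2.75 or below.

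The inversions were compared with WT to see whether contact of the enhancer region with this block was kept. As deposited, all 3 landmarks were lower than in WT in each of the 4 inversions, which is 12 of 12 values. Of all listed genes, 22.3%, 44.7%, 31.1% and 17.5% were lower than in WT in Inv1, Inv2, Inv3 and Inv4. A place below WT was thus common among all genes, most of all in Inv2. In Inv2 and Inv4 the direction of the landmarks depends on how the tables were made. Values below 0 there fit a table from which a multiple of WT had been subtracted. With that multiple added back, 5 of the 6 landmark values in Inv2 and Inv4 lay above WT. So did 73 of all 103 genes in Inv2 and 91 in Inv4. The multiple is near 1, so this follows by construction for most genes with a deposited value above 0. Inv3 also held values below 0 but gave no multiple, so whether its direction depends on a subtraction was not tested. The values are given as deposited unless stated. So given, values were lower than in WT both for the pair between Slc4a3 and Epha4 and for the miRNA gene inside Epha4. The highest value left was that of Gm17751 in Inv4, at 2.75, and the lowest that of Gm17751 in Inv3, at -1.27. These directions were known when the genes were chosen, and they are given as a description.

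Gm17751 was the landmark that varied most among the inversions. Its scaled contact was 4.15 in WT, against 1.43, -0.258, -1.27 and 2.75 in Inv1 to Inv4 in that order. As deposited, Inv4 thus came closest to WT, at 66.2% of it, and Inv1 was at 34.5%. In Inv3 it was the lowest of all 103 genes. In Inv2 it stood in place 96 from the top, and in Inv1 and Inv4 in places 42 and 41. Its log2 ratios to WT were -1.27 in Inv1 and -0.52 in Inv4. In Inv2 and Inv3 the ratio was -3.22, which is set by the pseudocount because values below 0 were first put at 0, and is not a bound.

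Mir6343 was at nearly the same low level in 3 inversions. Its scaled contact was 4.65 in WT, against 0.540, 1.61, 1.57 and 1.49 in the 4 inversions in order. Relative to WT this is 11.6% in Inv1 and 32.1% to 34.7% in the other inversions. From the top it stood in places 66, 31, 44 and 56 of 103 in Inv1 to Inv4. The log2 ratio was lowest in Inv1, at -2.31, and stood at -1.28, -1.31 and -1.37 in the others.

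As deposited, Mir6352 was lowest in Inv4, where Gm17751 was highest among the inversions. For Mir6352 the values in Inv1 and Inv4 are not resolved from each other, as given below. With the WT multiple added back, Mir6352 was at 5.86 in Inv4 and not lowest there. From 5.55 in WT, its scaled contact went to 0.486, 2.48, 1.86 and -0.117 in Inv1 to Inv4 in order. It was at 8.75% of WT in Inv1, 44.7% in Inv2 and 33.5% in Inv3. Its places from the top were 69, 20, 41 and 93 of 103 in Inv1 to Inv4. The log2 ratios were -2.62, -1.02 and -1.36, and -3.60 in Inv4, where the value below 0 was put at 0. In Inv1 Mir6352 and Epha4, which lie in the same gene, had 0.486 and 0.487.

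Because there are no replicates, the spread of these values was set against that of 27 far genes at both ends of the tables, which keep low values in WT. Taking Inv1 to Inv4 in turn, the far genes' differences from WT had an SD of 0.293, 0.432, 0.595 and 0.608. Counting scatter grows with the level of a value, so this SD is too small for genes as high as the landmarks in WT. The landmarks were below WT by 1.40 to 5.67, or 2.30 to 17.3 of these SDs. The smallest was Gm17751 in Inv4 in both measures.

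Among the inversions themselves, the order of the levels was largely unresolved for the miRNA genes. For Mir6343 the steps from Inv2 to Inv3, from Inv3 to Inv4 and from Inv4 to Inv1 were 0.044, 0.076 and 0.953, all under 2 SDs of the far genes' difference between the same tables. For Mir6352 the steps from Inv2 to Inv3 (0.621) and from Inv1 to Inv4 (0.603) were also under 2 SDs, and that from Inv3 to Inv1 (1.37) was 2.34 SDs. As deposited, Gm17751 ran from Inv4 through Inv1 and Inv2 to Inv3, with steps of 1.31, 1.69 and 1.008. Those were 2.42, 3.64 and 2.21 SDs of far genes with low values, so this order is not shown to be resolved. With the WT multiple added back, Gm17751 was at 3.86 in Inv2, above the 1.43 of Inv1. How the authors scaled the tables is not given in the sources used here, so levels set side by side across tables may also hold differences in scaling.

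Counts past a fixed fold give the background. With a pseudocount of 0.5, all 3 landmarks were over 2-fold below WT in Inv1, where 3.88% of the 103 genes were. The same held for 3 of 3 in Inv2 (16.5% of all genes), 3 of 3 in Inv3 (10.7%) and 2 of 3 in Inv4 (6.8%). The exception was Gm17751 in Inv4. The landmarks were chosen from these same values, so the counts support nothing further. With the WT multiple added back, 0 of 3 landmarks were over 2-fold below WT in both Inv2 and Inv4 tables. The median log2 ratio of the landmarks was -2.31, -1.28, -1.36 and -1.37 in Inv1 to Inv4, against 0.62, 0.0044, 0.81 and 1.08 for all genes. Of the 13 other noncoding genes, 0, 1, 2 and 0 were over 2-fold below WT, and 1, 1, 3 and 6 over 2-fold above. Of all 103 genes, 37, 20, 47 and 54 were over 2-fold above WT in Inv1 to Inv4. Of the 5 listed coding genes of the Epha4 and Pax3 domains (Epha4, Pax3, Sgpp2, Farsb and Mogat1), 1, 3, 3 and 2 were over 2-fold below. Over 2-fold above were 0, 0, 0 and 1, and 3, 4, 5 and 3 of the 5 were below WT by any amount.

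**Figure D2:**
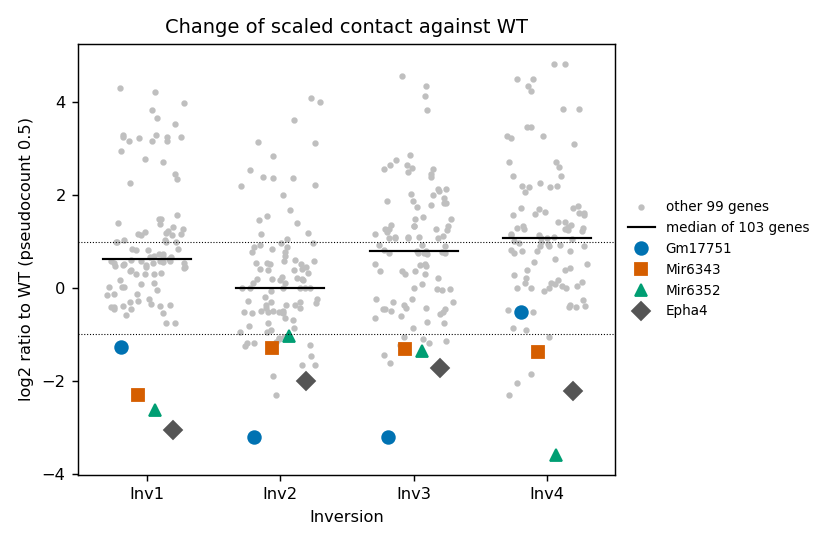
Log2 ratio of scaled contact to WT with a pseudocount of 0.5 (y axis) in Inv1 to Inv4 (x axis), with the 3 landmarks and Epha4 as coloured symbols, the other genes in grey and a bar at the median of all 103 genes. Dotted lines mark 2-fold. With values as deposited, the landmarks lie below 0 in every inversion, and Gm17751 in Inv4 is the 1 landmark value inside the dotted lines. With the WT multiple added back, which is not drawn, 5 of 6 landmark values in Inv2 and Inv4 would lie above 0. That holds for most genes by construction, and 73 of 103 genes in Inv2 and 91 in Inv4 would lie above WT.

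A ratio of 2 genes inside a table cancels a factor common to the table, but not a subtraction. In WT all landmarks were below Epha4. In Inv1 Gm17751 was at 294% of Epha4, Mir6343 at 111% and Mir6352 at 99.8%. With the far-gene median subtracted, Gm17751 in Inv1 was at 619% of Epha4, or at 979% with the far list as first written. In Inv2 Mir6352 was at 161% of Epha4 and Mir6343 at 105%. In Inv3 these 2 were at 93.2% and 78.7%, and in Inv4 Mir6343 was at 119% and Gm17751 at 219%. As deposited, at least 1 landmark thus stood above Epha4 in Inv1, Inv2 and Inv4, and none did in Inv3. Epha4 itself was then in places 68, 32, 39 and 58 of 103 from the top in Inv1 to Inv4. Many other genes also stood above it, so this is not particular to the landmarks. With the WT multiple added back, all 6 landmark values in Inv2 and Inv4 were below Epha4. Gm17751, Mir6343 and Mir6352 were then at 42.1%, 68.0% and 87.2% of Epha4 in Inv2, and at 75.7%, 68.2% and 61.6% in Inv4. The multiple is near 1, so about the WT values themselves are added. A place below Epha4, as in WT, thus follows largely by construction and shows nothing further. As deposited, Epha4 and Mir6343 differed by 0.053, 0.075, 0.426 and 0.239 in the 4 inversions in order, each below the median step between rows of the Dnpep to Slc4a3 stretch (0.452, 1.31, 3.01 and 2.63).

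On the Slc4a3 side, the levels of the block and of its neighbour were close in WT and far apart in the inversions. In WT Gm17751 exceeded Slc4a3 by 0.237. In the inversions it was below Slc4a3 by 4.13, 4.52, 7.06 and 4.39 (Inv1 to Inv4), with Slc4a3 itself at 5.57, 4.26, 5.80 and 7.13. The largest step between neighbouring rows of the Dnpep to Slc4a3 stretch was 1.35 in Inv1, 2.35 in Inv2 and 4.66 in Inv3, so the gap exceeded it in these 3 tables. It was 7.34 in Inv4, where the gap did not exceed it. On the other side, Mir6352 exceeded Pax3 by 3.58 in WT, 3.35 in Inv2, 0.875 in Inv3 and 0.691 in Inv4, while in Inv1 it was below Pax3 by 0.477. Pax3 was at 0.963, -0.870, 0.984 and -0.808 in Inv1 to Inv4.

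**Figure D3:**
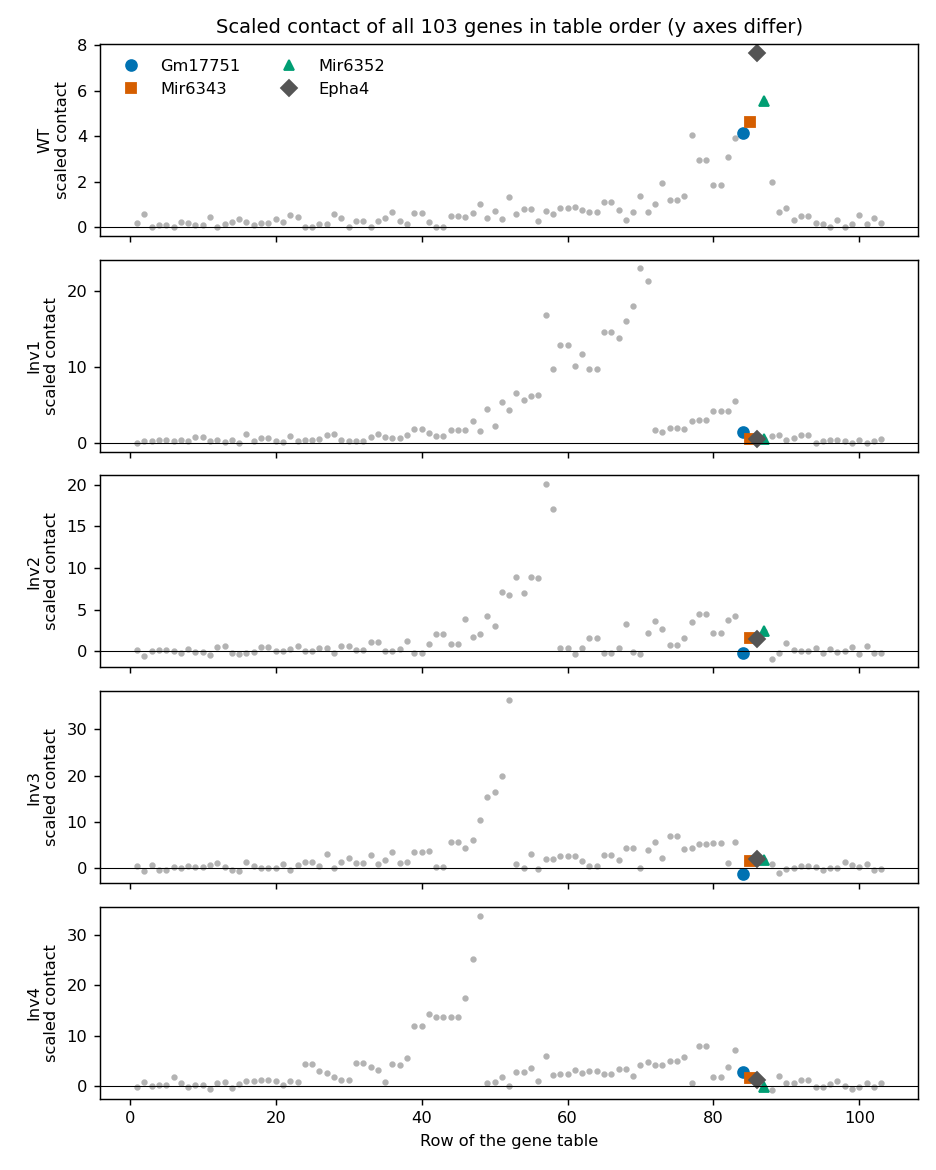
Scaled contact in deposited units (y axis, with its own range in each panel) of all 103 genes in the order of the table rows (x axis), 1 panel per table, with the landmarks and Epha4 as coloured symbols and other genes in grey. In WT the coloured symbols form the peak at rows 84 to 87. In the inversions, as deposited, they lie at or below 12.4% of the panel's highest value, to the right of a peak at lower rows. Mir6352 in Inv2 was still in place 20 of 103.

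Likeness to other genes was measured as the mean absolute difference of log2(value + 0.5) over the 5 tables, with values below 0 put at 0. Mir6343 was most like Epha4 (0.25), then Mir6352 (0.60) and Arpc2 (0.74), which encodes a subunit of the actin-nucleating Arp2/3 complex. The median over all genes was 1.50. Mir6352 was most like Epha4 (0.58), then Mir6343 (0.60) and Asic4 (0.96), with a median of 1.78. Gm17751 was instead most like Sgpp2 (0.53), a sphingosine phosphate phosphatase gene, then Mir1928 (0.68) and 6030407O03Rik (0.88), with a median of 1.50. Sgpp2 shared with Gm17751 the values below 0 in Inv2 and Inv3, at -0.230 and -0.871, and a highest inversion value in Inv4, at 2.07, but was at 0.667 in WT. Epha4 stood only in place 43 of 102 for Gm17751, and Mir6343, its neighbour, in place 16. The 5 values per gene are too few for a correlation.

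Values below 0 need their origin stated. The tables of WT and Inv1 had 0 values below 0, and those of Inv2, Inv3 and Inv4 had 25, 13 and 12. In Inv2, 7 of the 25 negative genes (6 different values) equalled the WT value times 0.992 to 0.994 with the sign turned. In Inv4, 3 of 12 equalled it times 1.07 to 1.08 with the sign turned. A gene with 0 contact in the library would take such a value if a fixed multiple of WT were subtracted. In Inv3, 0 pairs of genes with different values shared a ratio within 0.5%, so no multiple was taken there. The labels do not describe this step.

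If the same multiple was subtracted from every gene, adding it back gives the numbers behind the landmarks' values. In Inv2 Gm17751 was at 3.86 before a subtraction of 4.12, Mir6343 at 6.23 before 4.62, Mir6352 at 7.999 before 5.52, and Epha4 at 9.17 before 7.63. The parts left were -6.68%, 25.9%, 31.01% and 16.8%, against a median of 54.4% over 94 genes above 0 before subtraction. In Inv4 Gm17751 was at 7.21 before a subtraction of 4.46, Mir6343 at 6.50 before 5.003, Mir6352 at 5.86 before 5.98, and Epha4 at 9.52 before 8.27. There the parts left were 38.1%, 22.98%, -1.99% and 13.2%, against a median of 76.7% over 95 genes. A deposited value near 0, such as those of Gm17751 in Inv2 and Mir6352 in Inv4, was then the difference of 2 values between 3.86 and 5.98. Before subtraction Gm17751 was below WT in Inv2 (3.86 against 4.15), and the other 5 landmark values exceeded WT by 0.307 to 3.06. With a multiple near 1, most genes with a deposited value above 0 lie above WT before subtraction by construction, and 73 of 103 genes did in Inv2 and 91 in Inv4. The labels do not settle whether the contact of the inverted chromosome is the value before or after subtraction. The Inv4 multiple rests on 3 genes.

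**Figure D4:**
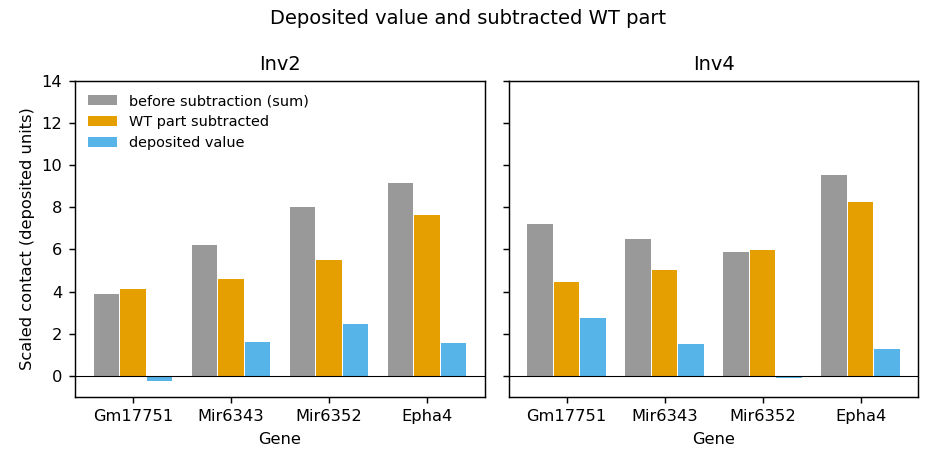
Scaled contact in deposited units (y axis) of the 3 landmarks and Epha4 (x axis) in Inv2 and Inv4, with the value before subtraction, computed by adding the WT part back, in grey, the subtracted WT part in orange and the deposited value in blue, 1 library each. For Gm17751 in Inv2 and Mir6352 in Inv4 the orange bar is taller than the grey one, and the blue bar lies below 0.

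Depth can be read from the maps but not from the tables. The balanced 10 kb maps gave 5448867 read pairs for WT and 4246606 for Inv1. The maps of Inv2, Inv3 and Inv4 held values below 0 at 29.7%, 31.3% and 28.8% of listed bin pairs, and their read pairs were not computed. The number of read pairs behind a single table value is unknown, so the landmarks' values carry no counting interval.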

How the data were processed

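Bowtie2 2.2.6, Juicer and the build mm9 are named in the submitters' processing notes, without the step each served. The gene tables hold 1 score per gene, a contact frequency that the authors scaled, per the file names; the reference of that scaling is not given in the sources used here. Maps were deposited as a signal per pair of 10 kb bins, balanced by the authors per the file names; the deposited Inv2 to Inv4 maps hold a score that can be below 0.

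From these, log2 ratios to WT were computed with a pseudocount of 0.5 after values below 0 were put at 0, in Python 3.11.15 with NumPy 2.4.6 and pandas 2.3.3. These ratios understate changes of low values. Read pairs were recovered by fitting 1 factor per bin, and 100% of off-diagonal values under 20 lay within 0.1 of a whole number. The calculations were tested on simulated data. The 103 symbols matched the RefSeq table of GRCm38.p6, 98 of them as current symbols. With 1 library per condition no test was made.

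The landmarks and gene lists were chosen with earlier results of these data known. Besides the landmarks, Epha4 and the listed genes, the text names their neighbouring rows and the 3 genes most like each. The far-gene list was to be the first 15 and last 20 rows, which held the 3 landmarks and the 5 coding genes, so these 8 were left out, after the files had been seen. The planned contacts of the landmarks in the maps were not computed, since the tables give no positions.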

Additional observations from a re-analysis of the deposited data

How the results depend on the processing

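No paired analysis was possible because each condition was 1 library. All 12 log2 ratios of the landmarks to WT stayed below 0 with either other pseudocount and after centring on the median gene. So did the 9 that could be had after dividing tables by the far-gene median or when only genes above 0 were kept. A pseudocount cannot turn the sign of a ratio, and the filter left the kept ratios as they were. The medians subtracted in centring were all above 0. The direction could therefore not have changed with other pseudocounts, centring or the filter. In Inv3 no multiple of WT could be taken. With the WT multiple added back in Inv2 and Inv4, chosen after seeing the data, 5 of 6 ratios were above 0. This holds for most genes by construction, and 73 of 103 genes lay above WT in Inv2 and 91 in Inv4. In Inv2 Gm17751 was then at -0.091, Mir6343 at 0.39 and Mir6352 at 0.49, and in Inv4 they were at 0.73, 0.44 and 0.071. Under that setting 0 landmarks were over 2-fold below WT in either table, the genes so called numbered 1 in Inv2 and 0 in Inv4, and the shares of Epha4 contact whose sign changed were 42.1% for Gm17751 in Inv2 and 61.6% for Mir6352 in Inv4. The far-gene median was 0 in Inv2, so division was not possible there. With a pseudocount of 5, no landmark was over 2-fold below WT in Inv1, Inv2 and Inv3 (0 each) and 1 was in Inv4. The ratios of Gm17751 were then -0.51 in Inv1 and -0.87 in Inv2 and Inv3, of Mir6343 -0.80 in Inv1, -0.54 in Inv2 and -0.57 in Inv4, and of Mir6352 -0.94 in Inv1 and -1.08 in Inv4. With 0.05, Gm17751 was at -6.39 in Inv2 and Inv3, Mir6343 at -2.99 in Inv1, and Mir6352 at -3.39 in Inv1 and -6.81 in Inv4. Pseudocounts set these sizes by construction. After centring, Gm17751 was at -1.89 in Inv1, -4.02 in Inv3 and -1.60 in Inv4, Mir6343 at -2.93, -2.12 and -2.45, and Mir6352 at -3.24, -2.17 and -4.68. Division by the far-gene median moved Gm17751 in Inv1 to -1.83 with the list as first written and to -1.88 with the shorter list, which was chosen after seeing the data. Across all genes, those lower than in WT by over 2-fold numbered 4, 17, 11 and 7 from Inv1 to Inv4. They were 12, 36, 26 and 15 with a pseudocount of 0.05, 1, 0, 0 and 2 with 5, and 13, 29 and 25 in Inv1, Inv3 and Inv4 after centring. They were 4, 6 and 3 in Inv2, Inv3 and Inv4 when only genes above 0 in both tables were kept, since fewer genes were counted. Depth limits all table values to an unknown extent.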
